A study of Bos taurus with 6 samples.

Results

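Solute carriers are the membrane proteins that move amino acids, sugars, ions, metals, nucleosides and vitamins across cell and organelle membranes, and their genes are named by family (SLC, a family number, A and a member number). The solute carrier genes described here are those of bovine oocytes outside the mitochondrial SLC25 family, with the glucose transporter genes SLC2A1 and SLC2A3 also left out, that had a mean of at least 1 FPKM (a read level corrected for transcript length and for the size of the library) over 6 libraries. The members were thus chosen by their symbol and by this mean level, over both groups together. Of 248 genes with such a symbol, 108 reached it, among 17325 genes measured. Of the 108, 3 match by symbol but encode no carrier. These are SLC7A6OS, SLC4A1AP, which encodes a protein that binds an anion exchanger, and SLC9A3R1, a scaffold for membrane proteins now named NHERF1, so the carriers number 105.

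Carriers work with gradients that pumps set up. Sodium-coupled carriers draw nutrients inward, exchangers trade one solute for another, and carriers in the Golgi and lysosome supply sugar donors for glycoproteins or empty the lysosome of breakdown products. An oocyte grows in contact with cumulus cells, which pass it amino acids and metabolites through gap junctions, and it must hold its own volume, pH and metal content once that contact is lost at maturation. In mouse oocytes zinc importers of the SLC39 family take up the zinc needed for meiotic arrest.

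Total RNA came from bovine oocytes at metaphase II after in vitro maturation, when the egg is arrested until sperm entry. There were 3 libraries labelled MTFP1 knockdown, titled siMTFP1, and 3 labelled negative control, titled NC, and the design compares these groups. MTFP1 encodes an inner mitochondrial membrane protein linked to fission. The knockdown reagent, its delivery and the number of oocytes or animals behind a library are not stated in the labels. The p-values therefore measure the spread between these libraries, which may be technical. In bulk RNA, fewer cells of a type and less RNA per cell cannot be told apart.

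MTFP1 itself had 0.43, 0.58 and 1.15 FPKM in the libraries labelled knockdown 1, 2 and 3, against 0.53, 0.55 and 0.05 in those labelled control 1, 2 and 3 (exact two-sided permutation test, p = 0.4, smallest possible 0.1). The targeted transcript was near 0 throughout and did not follow the labels, so groups are named by their labels. All 10 oocyte markers examined were present, from 5.07 FPKM for NLRP5 to 10120 FPKM for BTG4 on average. Of 18 cumulus and granulosa markers, 11 had a mean of at least 1 FPKM, and the 18 summed to 170 to 1127 FPKM in knockdown libraries and 145 to 349 in control libraries. Knockdown 2 had the highest sum, of which TIMP1 made up 955 FPKM. HAS2, STAR, VCAN and TIMP1 of this list were present in every library, with lowest values of 33.79, 54.52, 13.29 and 13.14 FPKM. PTX3 was present at lower levels, with a lowest value of 1.44 FPKM. FSHR, AMH and FOXL2 of the same list had at most 0.18 FPKM in any library, with FSHR listed at 0 in 5 of 6. These genes were picked from the 18 with their values in view, and the levels of the 18 differed widely. Theca and stroma markers summed to at most 0.89 FPKM. Of 4 blood and immune markers 3 were measured, and they summed to 24.4 to 58.3 FPKM in knockdown libraries and 45.4 to 74.1 in control libraries, nearly all of it from the globin gene HBA, with the leukocyte marker PTPRC at most 0.05.

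SLC7A3, the cationic amino acid transporter CAT3, stood far above all other carriers. It had 482.90, 388.12 and 694.87 FPKM in the knockdown libraries, against 513.56, 961.43 and 658.90 FPKM in the control libraries. The ranges overlapped, with the highest value in control 2 and the lowest in knockdown 2. It alone held 17.1% to 26.4% of the summed FPKM of the 105 carriers in knockdown libraries and 22.4% to 32.7% in control libraries. The carriers summed to 2448 ± 181 FPKM in knockdown libraries and 2548 ± 346 FPKM in control libraries (SD, n = 3 each), and without SLC7A3 to 1926 ± 44.2 and 1837 ± 125 FPKM.

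Below SLC7A3 came a group of 5 genes with means from 101 to 126 FPKM. SLC35A3, the Golgi transporter of UDP-N-acetylglucosamine, averaged 124 ± 5.76 FPKM in knockdown and 129 ± 4.48 FPKM in control libraries (SD, n = 3 each, as for the other means here). SLC3A2, the heavy chain that carries several amino acid exchangers to the membrane, averaged 118 ± 5.71 and 99.9 ± 15.5 FPKM in knockdown and control libraries. The copper transporter gene SLC31A2 averaged 108 ± 33.8 FPKM in knockdown and 109 ± 3.56 FPKM in control libraries. The thiamine transporter gene SLC19A2 averaged 107 ± 21.96 FPKM in knockdown and 99.6 ± 2.57 FPKM in control libraries. SLC15A4, a histidine and peptide transporter of endosomes and lysosomes, averaged 106 ± 11.5 and 96.3 ± 10.003 FPKM. Each of the 5 overlapped its neighbours in the order, so that neighbouring ranks are not resolved, while every library value of SLC35A3 lay above every one of SLC15A4.

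Ranks 7 to 12 held 1 gene close below this group and 5 at nearly equal levels. They were the pyrimidine nucleoside transporter SLC28A1, the neutral amino acid transporter SLC38A8, the phosphate transporter SLC20A1, the zinc importer SLC39A12, the vesicular monoamine transporter SLC18A2 and the lysosomal sialic acid exporter SLC17A5, with means over the 6 libraries of 91.5, 71.1, 69.2, 67.1, 65.4 and 65.1 FPKM. In all, 14 of the 108 genes averaged at least 50 FPKM, 40 at least 10, 46 between 2 and 10, and 22 under 2. The median was 5.84 FPKM, against 8.57 FPKM for all 9730 genes that passed the same level.

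**Figure D1:**
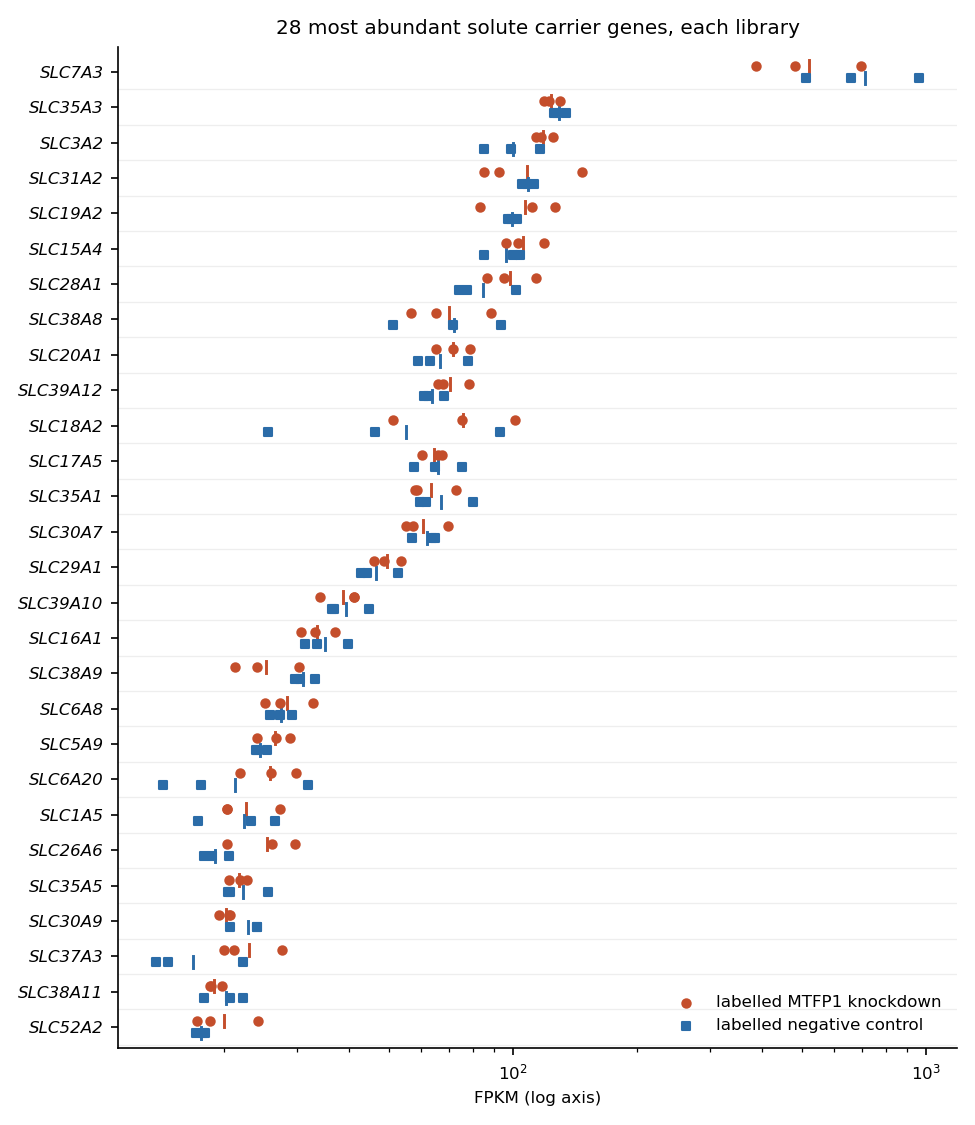
FPKM (log axis) of the 28 most abundant members in each library, with circles for libraries labelled MTFP1 knockdown, squares for those labelled negative control and a vertical bar at each group mean. SLC7A3 lies between 388 and 961 FPKM, apart from the rest, and the groups overlap for all genes drawn except SLC30A9.

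The division of a family's level among its genes varied between families. Of 38 families with at least 2 measured genes and at least 1 member here, the leading gene held more than 50% of the family's FPKM in 31 and more than 90% in 13. Families were summed only over genes that match the choice by symbol. The SLC2 sum thus lacks SLC2A1 and SLC2A3, and that of SLC35 holds only its 5 SLC35A genes. In the SLC7 family SLC7A3 held 93.2% ± 1.79 of the FPKM in knockdown libraries and 94.9% ± 1.93 in control libraries (SD, n = 3 each), while the related SLC7A1 averaged 0.123 FPKM over all libraries. SLC20A1 held 98.5% ± 0.769 and 98.8% ± 0.696 of the SLC20 family, and SLC28A1 held 94.9% ± 0.920 and 93.6% ± 0.116 of the SLC28 family, in knockdown and control libraries. Other families were shared: SLC44A5 led the choline transporter-like family with 40.8% ± 1.78 and 42.7% ± 3.44.

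**Figure D2:**
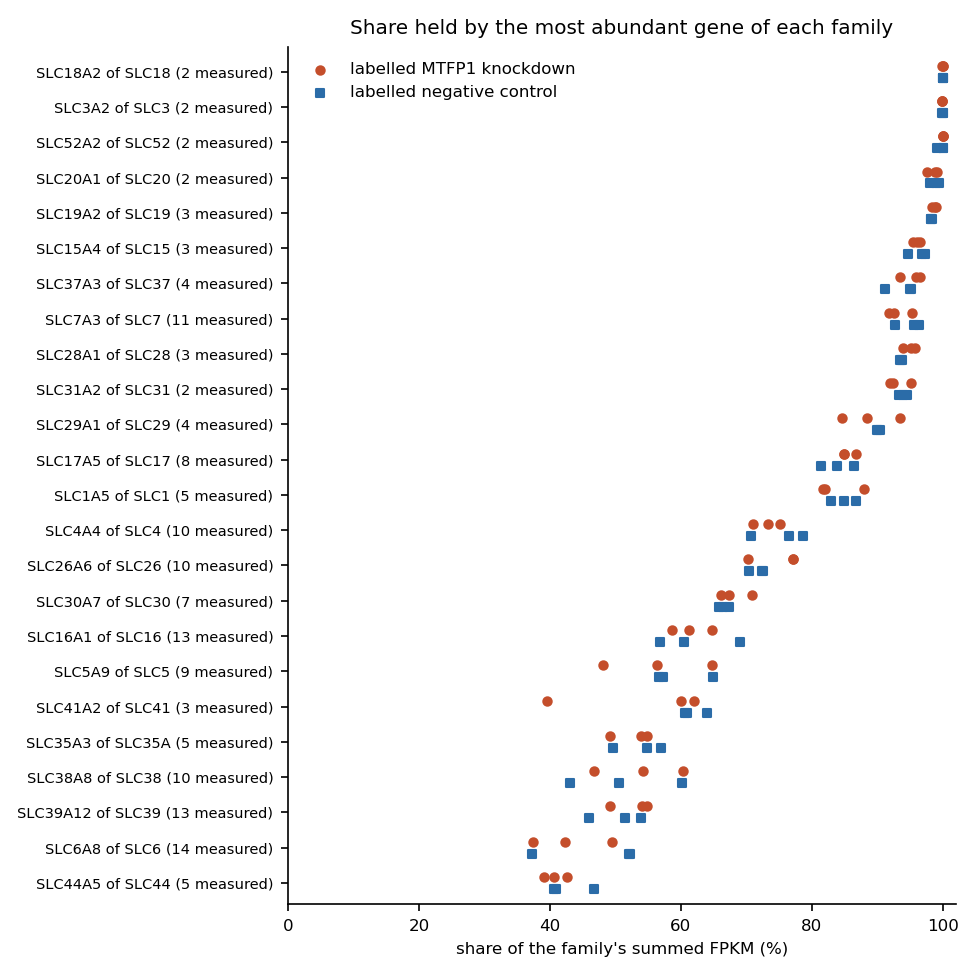
Share (%) of each family's summed FPKM held by its most abundant gene in each library, for 24 families with at least 2 measured genes and a leading gene of at least 10 FPKM. Circles are knockdown libraries and squares control libraries, and SLC20A1 stays between 97.7% and 99.4% in all 6 libraries while SLC44A5 stays between 39.1% and 46.7%.

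Some transporters studied in other oocytes were scarce. SLC6A9, the glycine transporter by which mouse oocytes regulate volume, had 0.02, 0.16 and 0.03 FPKM in the knockdown libraries and 0.12, 0.07 and 0.02 FPKM in the control libraries. Another glycine transporter gene, SLC6A5, averaged 6.09 FPKM, and SLC6A20, which carries proline and was chosen after its values were seen, averaged 23.5 FPKM. The glutamine transporters SLC38A3 and SLC38A2 averaged 0.843 and 0.543 FPKM over the 6 libraries. Among light chains that pair with SLC3A2, SLC7A5 averaged 0.120 FPKM and SLC7A11 0.427 FPKM, whereas SLC7A7 and SLC7A6 averaged 9.08 and 8.11 FPKM. The 6 light chain genes SLC7A5, SLC7A6, SLC7A7, SLC7A8, SLC7A10 and SLC7A11 summed to 21.7 ± 0.840 FPKM in knockdown and 21.7 ± 4.92 FPKM in control libraries, well under the 118 and 99.9 FPKM of their heavy chain. SLC7A1, SLC6A9, SLC38A2, SLC38A3, SLC7A5 and SLC7A11 lay below the level of 1 FPKM, and these genes, like the light chains, were picked with their levels in view.

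The threshold of 1 FPKM fell within a continuous range. Just inside it were SLC6A2, SLC7A8 and SLC39A8, at 1.08, 1.03 and 1.01 FPKM. SLC16A11 and SLC27A2, each at 0.975 FPKM, and SLC30A1 and SLC4A9, each at 0.973 FPKM, were just outside. In 4 members, SLC39A8, SLC50A1, SLC6A2 and SLC7A8, the control mean was under 1 FPKM, so they qualified only through their knockdown libraries and had to differ in that direction. Of the 140 genes below the level, 62 averaged under 0.1 FPKM.

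Between the groups, 0 of the 108 members passed the threshold of 0.05 in limma with Benjamini-Hochberg adjustment over all 9730 tested genes, where 0% of all genes passed. The lowest adjusted p of a member was 0.623. At an unadjusted p under 0.05 there were 4 members, 2 higher and 2 lower in knockdown libraries. That is 3.70% of members, against 6.53% of all tested genes (3.86% higher and 2.66% lower). Without 1 library the count reached 8 members at most, or 7.41%, both without knockdown 3 (7.15% of all tested genes) and without control 2 (7.30%). The groups did not overlap for 11 members, of which 6 were higher and 5 lower in knockdown libraries, or 10.2% of members, against 11.0% of all tested genes (5.97% higher and 5.05% lower). With all 6 libraries these shares lay under those of all tested genes. A higher mean log2 level in knockdown libraries was found for 63 members, or 58.3%, against 54.2% of all tested genes. The 63 include SLC39A8, SLC50A1, SLC6A2 and SLC7A8, whose direction was fixed because they reached 1 FPKM only through knockdown libraries. SLC7A8 is also among the 6 higher members without overlap.

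The differences were small. Differences are given on the log2(FPKM + 1) scale, where the pseudocount of 1 shrinks those of genes with low levels. The median difference (knockdown minus control) was 0.07 for members and 0.02 for all tested genes. It was below 0.2 in size for 75 members, from 0.2 to 0.5 for 29 and at least 0.5 for 4. A size of 1, a doubling or halving of FPKM + 1, was reached by 1 member, 0.926%, against 1.09% of all tested genes. For 101 of the 108 members the 95% interval of the limma difference lay wholly between -1 and 1.

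**Figure D3:**
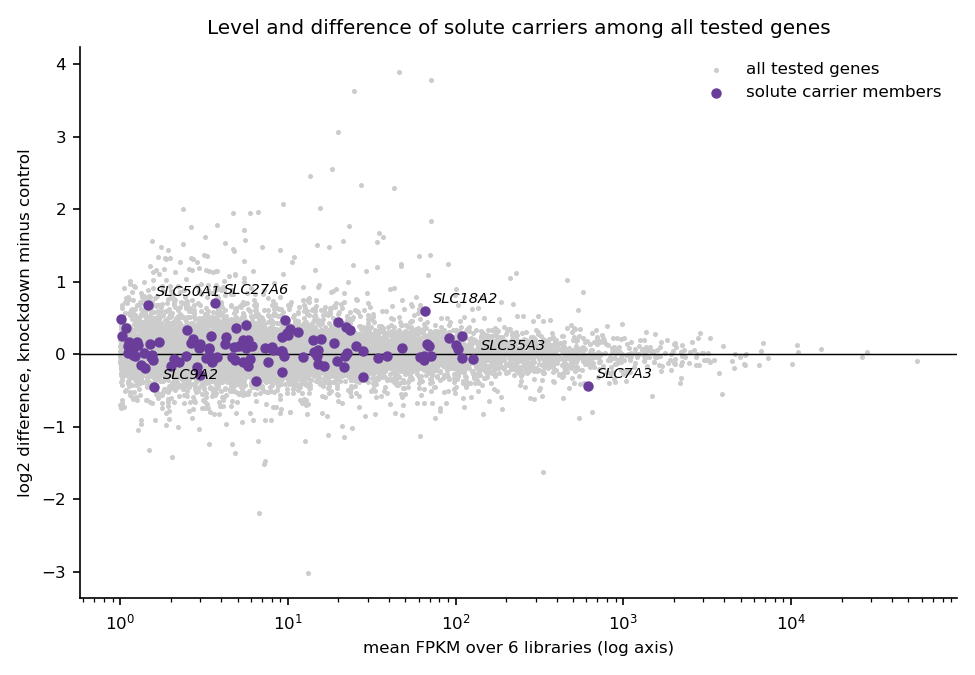
Mean FPKM over the 6 libraries (log axis) against the log2 difference, knockdown minus control, for all 9730 tested genes (grey) and 107 of the solute carrier members (purple). Of those drawn, SLC27A6 is highest, at 0.71, and all lie inside the spread of all genes.

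Among carriers of ions, 16 of 46 measured genes were members, of which 6 had a higher and 10 a lower mean log2 level in knockdown libraries, with a median difference of -0.04. SLC9A2, a sodium-proton exchanger, had 0.81, 1.25 and 1.53 FPKM in the knockdown libraries, against 2.35, 1.83 and 1.79 FPKM in the control libraries. The groups did not overlap, and the log2 difference was -0.45 (SE 0.19, limma unadjusted p = 0.0380, adjusted p = 0.750). It was -0.32 without knockdown 1 and -0.56 without knockdown 3. Among fits without 1 library, the limma unadjusted p was under 0.05 only without knockdown 3 and without control 3. With the replicate number as a block it was not. The anion exchanger SLC26A6 went the other way, with 29.60, 26.10 and 20.27 FPKM in knockdown libraries and 17.87, 20.53 and 18.70 FPKM in control libraries. Knockdown 3 lay under control 2, so the groups overlapped, with a log2 difference of 0.38 (SE 0.17). The difference was 0.26 without knockdown 1. Without knockdown 3 it was 0.53, with a limma unadjusted p under 0.05. The potassium-chloride cotransporter gene SLC12A5 averaged 5.58 ± 0.845 FPKM in knockdown and 4.21 ± 1.22 FPKM in control libraries (log2 difference 0.36, and 0.15 without control 3), and SLC12A2, the sodium-potassium-chloride cotransporter that brings salt into cells, averaged 7.33 ± 1.204 and 7.93 ± 0.163 FPKM. Both overlapped between groups and were picked with their values in view.

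**Figure D4:**
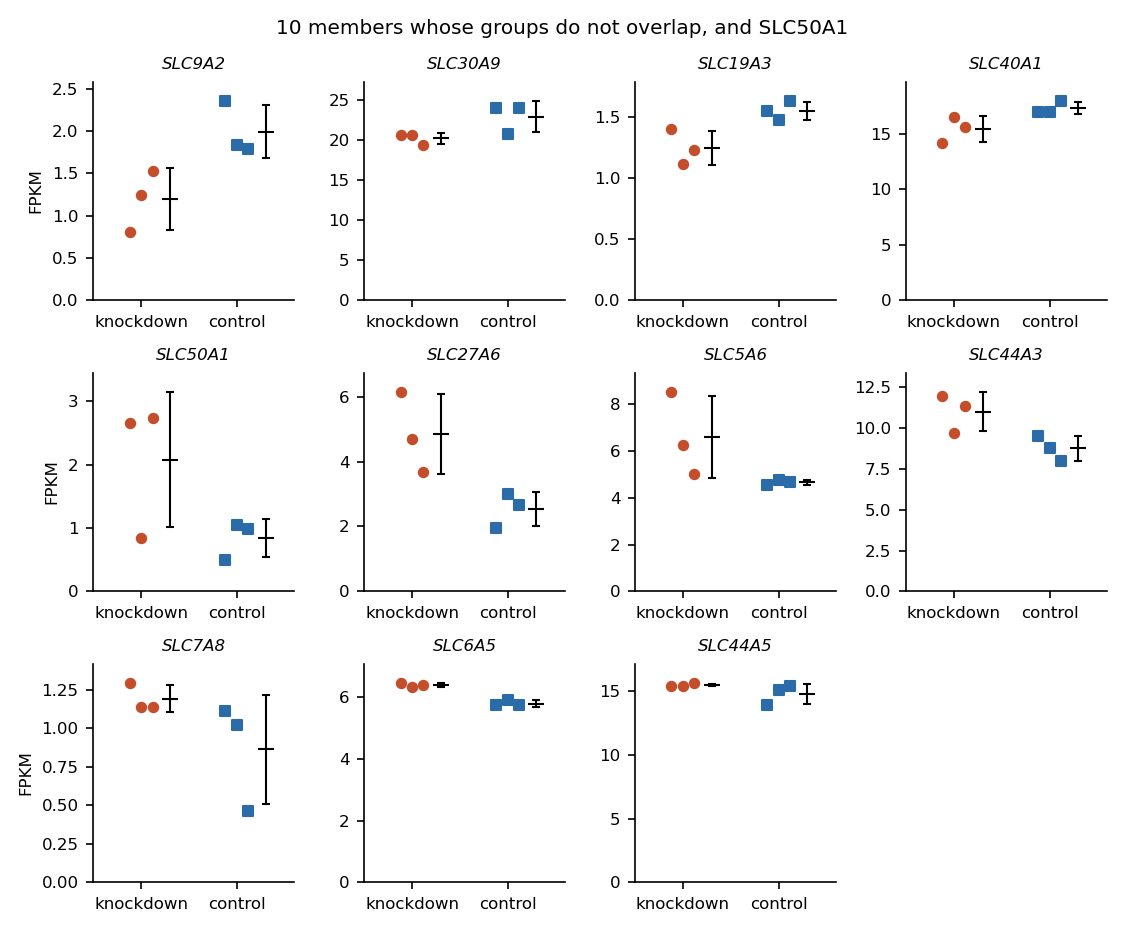
FPKM in each library for 10 of the members whose groups did not overlap and for SLC50A1, with knockdown libraries left, control libraries right and group mean ± SD (n = 3) beside the points. SLC9A2 lies lower, and SLC27A6 and SLC5A6 higher, in every knockdown library, and in each of these genes the nearest libraries of the groups differ by under 1 FPKM.

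Of 46 measured amino acid carrier genes 21 were members, 13 with a higher and 8 with a lower mean log2 level in knockdown libraries, and 0 of them reached an unadjusted p under 0.05. The smallest p belonged to SLC38A9, which reports lysosomal arginine to the growth regulator mTORC1. It had 30.31, 21.22 and 23.96 FPKM in knockdown libraries, against 30.54, 29.60 and 33.12 FPKM in control libraries. Knockdown 1 lay within the control range, and the log2 difference was -0.31 (SE 0.16), or -0.20 without knockdown 2. Without knockdown 1 it was -0.44, with a limma unadjusted p under 0.05. SLC3A2 had 124.78, 116.71 and 113.75 FPKM in knockdown and 98.77, 115.98 and 84.95 FPKM in control libraries. Its log2 difference was 0.25 (95% interval -0.08 to 0.59), or 0.14 without control 3. Without control 2 the difference was 0.37, with a limma unadjusted p under 0.05. For SLC7A3 the log2 difference was -0.44 (95% interval -1.04 to 0.16). This value depended on single libraries, at -0.20 without control 2, -0.25 without knockdown 2 and -0.67 without knockdown 3, and its unadjusted p was under 0.05 without knockdown 3 and without control 1.

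SLC6A5 and SLC7A8, the neutral amino acid exchanger LAT2, were the amino acid carriers whose groups did not overlap, each higher in knockdown libraries. SLC6A5 had 6.45, 6.32 and 6.39 FPKM in knockdown libraries, against 5.74, 5.92 and 5.74 FPKM in control libraries. These 6 values formed the narrowest range of any member of at least 5 FPKM, with SDs of 0.065 and 0.104 FPKM in knockdown and control libraries. The log2 difference was 0.12. Its SE of 0.14 is that of limma, which draws on the spread of other genes, and is not the spread of these 6 values alone. SLC7A8 had 1.29, 1.14 and 1.14 FPKM in knockdown libraries and 1.11, 1.02 and 0.46 FPKM in control libraries, and control 3 stood below the rest (log2 difference 0.25, and 0.08 without control 3). SLC7A8 reached the level of 1 FPKM only through its knockdown libraries, which fixed its direction.

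Metal carriers were well represented, with 21 members of 27 measured genes. In 11 the mean log2 level was higher and in 10 lower in knockdown libraries, with 0 at an unadjusted p under 0.05 and a median difference of 0.01. Zinc importers of the SLC39 family contributed 10 of them. SLC39A12 led at 70.6 ± 6.76 FPKM in knockdown and 63.7 ± 3.76 FPKM in control libraries, followed by SLC39A10 at 38.8 ± 4.10 and 39.4 ± 4.70 FPKM. Its close relative SLC39A6, which forms a complex with SLC39A10, averaged 8.24 ± 1.82 FPKM in knockdown and 10.2 ± 3.56 FPKM in control libraries. SLC39A6 and SLC39A10 were picked with their values in view.

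SLC40A1, the iron exporter ferroportin, and SLC30A9, a mitochondrial zinc exporter, were lower in every knockdown library than in any control library, by narrow margins. SLC40A1 had 14.17, 16.50 and 15.62 FPKM in knockdown libraries, against 16.94, 16.95 and 17.89 FPKM in control libraries (log2 difference -0.15, SE 0.14; -0.10 without knockdown 1). SLC30A9 had 20.65, 20.55 and 19.36 FPKM in knockdown libraries, against 23.96, 20.68 and 24.00 FPKM in control libraries (log2 difference -0.17, SE 0.14). The nearest libraries differed by less than 1 FPKM in both genes.

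Other metal carriers overlapped. The magnesium transporter SLC41A1 had 8.78, 8.91 and 16.57 FPKM in knockdown libraries and 9.59, 8.15 and 5.61 FPKM in control libraries, with knockdown 3 far above the rest. Its log2 difference was 0.47, with 0.19 without knockdown 3, 0.28 without control 3 and 0.62 without control 1. SLC39A8, an importer of zinc and manganese, had 0.8, 2.2 and 1.1 FPKM in knockdown libraries and 0.79, 0.81 and 0.34 FPKM in control libraries. The log2 difference was 0.49, with 0.25 without knockdown 2. It was 0.67 without knockdown 1, where the limma unadjusted p was under 0.05. Its direction was fixed by its reaching 1 FPKM only through the knockdown libraries. Its highest value was in knockdown 2, the library with the highest cumulus marker sum, whose part in this difference was not tested.

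Lipid and choline carriers had 5 members, of which 4 had a higher mean log2 level in knockdown libraries. SLC27A6, a long-chain fatty acid transport protein, had 6.13, 4.70 and 3.69 FPKM in the knockdown libraries, against 1.96, 2.99 and 2.65 FPKM in the control libraries. The groups did not overlap. Its log2 difference of 0.71 was the largest positive one among members (SE 0.21, 95% interval 0.25 to 1.18, limma unadjusted p = 0.00755, adjusted p = 0.639). SLC44A3, a choline transporter-like gene, had 11.94, 9.68 and 11.35 FPKM in knockdown libraries, against 9.51, 8.75 and 7.99 FPKM in control libraries (log2 difference 0.30, SE 0.15). Its RefSeq span overlaps that of CNN3, an actin-binding calponin gene, which averaged 562 ± 36.1 FPKM in knockdown and 490 ± 8.38 FPKM in control libraries and did not overlap between groups either. SLC44A5 had 15.40, 15.39 and 15.57 FPKM in knockdown libraries and 13.85, 15.04 and 15.36 FPKM in control libraries, a log2 difference of 0.06, or 0.02 without control 1.

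Vitamin carriers had 7 members, with SLC5A6 higher and SLC19A3 lower in every knockdown library than in any control library. SLC5A6, which takes up biotin and pantothenate with sodium, had 8.51, 6.25 and 5.04 FPKM in knockdown libraries, against 4.55, 4.75 and 4.69 FPKM in control libraries. The control values were close together and the knockdown values spread, with a log2 difference of 0.40 (SE 0.19, limma unadjusted p = 0.0683), or 0.22 without knockdown 1. Without knockdown 3 the difference was 0.55, with a limma unadjusted p under 0.05. The span of SLC5A6 overlaps that of ATRAID in RefSeq, and ATRAID averaged 282 ± 53.9 FPKM in knockdown and 322 ± 61.2 FPKM in control libraries. SLC19A3, a thiamine transporter, had 1.4, 1.12 and 1.23 FPKM in knockdown libraries, against 1.55, 1.48 and 1.63 FPKM in control libraries (log2 difference -0.18, SE 0.15). CNN3 and ATRAID were chosen for their position after the values of their neighbours were seen.

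Sugar carriers had 6 members, 5 with a higher mean log2 level in knockdown libraries and a median difference of 0.19. SLC50A1, a sugar exporter, had 2.65, 0.85 and 2.73 FPKM in knockdown libraries, against 0.50, 1.04 and 0.98 FPKM in control libraries. Knockdown 1 and 3 were high and knockdown 2 lay within the control range, so the groups overlapped. The log2 difference was 0.69 (SE 0.29, limma unadjusted p = 0.0421, adjusted p = 0.755). Among fits without 1 library, the limma unadjusted p was under 0.05 only without knockdown 2, where the difference was 1.02. It was 0.51 without knockdown 3. The p was also not under 0.05 with no filter on level, under quantile normalization or with the replicate number as a block. SLC50A1 had a control mean under 1 FPKM and qualified only through its knockdown libraries, so its direction was fixed by the choice of members, also where it counts among the 4 at an unadjusted p under 0.05 and the 5 higher sugar carriers. SLC37A3, of the sugar phosphate exchanger family, had 27.61, 19.92 and 21.15 FPKM in knockdown libraries and 14.61, 22.16 and 13.69 FPKM in control libraries. Control 2 lay inside the knockdown range, and the log2 difference was 0.44 (SE 0.21), or 0.30 without knockdown 1. Without control 2 it was 0.64, with a limma unadjusted p under 0.05. The 5 measured SLC35A genes, which bring nucleotide sugars into the Golgi or are related to genes that do, were all members, 2 with a higher and 3 with a lower mean log2 level in knockdown libraries. The largest difference was that of SLC35A4, at 11.7 ± 3.50 FPKM in knockdown and 8.84 ± 1.99 FPKM in control libraries (log2 difference 0.35, with 0.16 without knockdown 2, 0.18 without control 3 and 0.57 without knockdown 3).

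Nucleoside carriers had 4 members. SLC28A1, which concentrates pyrimidine nucleosides with sodium, had 95.26, 86.28 and 113.95 FPKM in knockdown libraries, against 74.01, 101.76 and 77.44 FPKM in control libraries. Control 2 fell inside the knockdown range, and the log2 difference was 0.23 (95% interval -0.16 to 0.61), with 0.12 without knockdown 3, 0.14 without control 1 and 0.37 without control 2. The equilibrative transporter SLC29A1 averaged 49.5 ± 3.70 FPKM in knockdown and 46.5 ± 5.23 FPKM in control libraries.

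SLC16A1, which carries lactate and pyruvate, was the member of the monocarboxylate class, at 33.6 ± 3.21 FPKM in knockdown and 34.98 ± 4.45 FPKM in control libraries. SLC20A1 was the phosphate carrier among members, at 71.7 ± 6.84 FPKM in knockdown and 66.6 ± 9.93 FPKM in control libraries. SLC6A8, the creatine transporter, led a class of 4 amine and creatine carriers at 28.4 ± 3.92 and 27.4 ± 1.69 FPKM in knockdown and control libraries.

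Organic ion, peptide and vesicular carriers had 8 members, and SLC18A2 varied most among them. It had 51.31, 75.17 and 100.91 FPKM in the knockdown libraries, against 46.40, 93.06 and 25.51 FPKM in the control libraries. The groups overlapped, since control 2 lay near the top, and the log2 difference of 0.59 had a 95% interval from -0.37 to 1.56. It was 1.06 without control 2, 0.36 without knockdown 3 and 0.15 without control 3. SLC7A3, SLC38A8 and SLC6A20 also had their highest control value in control 2 and their highest knockdown value in knockdown 3. SLC38A8 had 88.28 FPKM in knockdown 3 and 93.34 in control 2, and SLC6A20 had 29.74 and 31.90 FPKM. These genes were grouped with their values in view. Members of other classes showed the same order, among them SLC31A2 (146.94 and 112.34 FPKM) and SLC28A1 (113.95 and 101.76 FPKM). The share of all members with this order was not counted. SLC17A3, an organic anion transporter, averaged 5.42 ± 1.19 FPKM in knockdown and 7.39 ± 2.29 FPKM in control libraries (log2 difference -0.37, with -0.18 without control 2, -0.21 without knockdown 1 and -0.58 without control 1), and the drug and toxin exporter SLC47A1 averaged 2.92 ± 1.01 and 2.05 ± 0.427 FPKM (log2 difference 0.34, and 0.14 without knockdown 3).

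**Figure D5:**
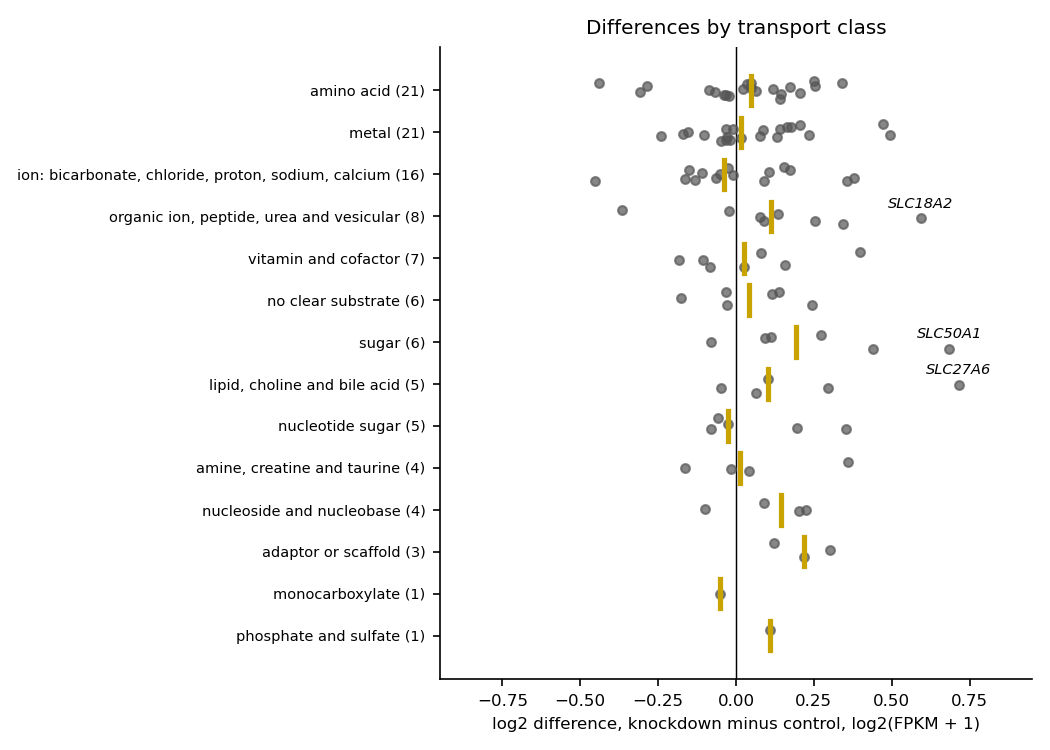
Log2 difference (knockdown minus control, log2(FPKM + 1) scale) of 107 members by transport class, with the number of members of the class in brackets and a thick bar at the median over all of them. Most points lie within 0.5 of 0, and the labelled genes SLC18A2, SLC50A1 and SLC27A6 are those drawn with a difference of at least 0.5 in size.

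The pumps, channels, sensors and storage proteins that work with these carriers were taken from a list of 74 genes, of which 70 were measured and 54 tested. In 39 of the 54 the mean log2 level was higher in knockdown libraries and in 15 lower, where 54.2% of all tested genes were higher. The list was chosen with earlier results of these data known, so this lean is a description only. Of the 54, 0 passed the adjusted threshold and 3 had a limma unadjusted p under 0.05, or 5.56% against 6.53% of all tested genes. Among the tested genes, groups did not overlap for 7, all of them higher in knockdown libraries, or 13% of the tested genes, against 5.97% of all tested genes in that direction and 11.0% in either. Below the level tested, ATP7A and AQP7 did not overlap either and were lower in knockdown libraries, with means over the 6 libraries of 0.525 and 0.0833 FPKM. The median log2 difference was 0.08, against 0.02 for all tested genes. LAMTOR4, part of the complex that anchors mTORC1 signalling at the lysosome, had 15.80, 21.26 and 17.57 FPKM in knockdown libraries, against 12.02, 10.77 and 10.45 FPKM in control libraries. Each knockdown library lay above all control libraries (log2 difference 0.66, SE 0.16, limma unadjusted p = 0.00275, adjusted p = 0.583). The calcium pump gene ATP2B4 had 6.10, 6.46 and 7.39 FPKM in knockdown libraries and 4.20, 4.88 and 4.37 FPKM in control libraries, again without overlap (log2 difference 0.48). The copper chaperone ATOX1 (log2 difference 0.45, and 0.24 without knockdown 2) and the iron chaperone PCBP1 (0.22) did not overlap either.

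Of the 4 tested genes of the kinase pathway that regulates cation-chloride cotransport, 3 had a higher mean log2 level in knockdown libraries. STK39, the kinase SPAK of that pathway, had 40.71, 36.24 and 42.02 FPKM in knockdown libraries and 27.46, 37.95 and 25.79 FPKM in control libraries, with control 2 inside the knockdown range (log2 difference 0.39). MLST8, a subunit of the mTOR complexes, had a log2 difference of 0.72 at 1.26, 3.50 and 1.00 FPKM in knockdown and 0.47, 0.36 and 1.28 FPKM in control libraries, where knockdown 2 was highest and the groups overlapped. It was 0.36 without knockdown 2, and its control mean of 0.703 FPKM was under the level tested, so that it was tested only through its knockdown libraries and had to differ upward.

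Carrier levels were about as steady between libraries as those of other genes. Among the 62 members of at least 5 FPKM the highest library was a median 1.51 times the lowest, against 1.52 times for all tested genes of that level, and in 31 of the 62 it was less than 1.5 times. The steadiest after SLC6A5 were SLC44A5, SLC35A3, SLC38A6 and SLC7A2, with ratios from 1.12 to 1.17. SLC18A2, SLC41A1, SLC5A1 and SLC7A3 were among the most variable, with ratios from 3.96 down to 2.48. SLC38A6 and SLC7A2, both amino acid carriers, were picked with their values in view.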

How the data were processed

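The authors deposited one FPKM value per gene for each of 6 libraries of bovine oocytes, with 2 decimals, for 17325 genes. Per the submitters' processing notes, HISAT2 2.2.1, Bowtie2 2.3.4.3, RSEM 1.3.1, DESeq2 1.4.5 and the build ARS-UCD1.2 were used, without a stated role or order. Neither the handling of shared reads nor the use of strand in counting is stated in those notes. The RefSeq spans (ARS-UCD2.0, used only for names and neighbours, with all 108 IDs matched) of 47 members overlap another gene, so their values can hold reads of both. Sequencing depth is unknown, since the deposited FPKM carry no totals of reads, so counting intervals cannot be had. Low values of the same gene most often had a log2 ratio within 0.1 of 0 between libraries, in 15 of 15 pairs.

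Members were found by symbol and mean FPKM. The members, transport classes, partner and marker lists were chosen with earlier results of these data known, and the transport classes were assigned when the values were already available. Values were taken as log2(FPKM + 1), and the 9730 genes with a mean of at least 1 FPKM were compared in limma 3.58.1 (R 4.3.3; eBayes with trend, group as the only term, two-sided), with Benjamini-Hochberg adjustment over all of them. The fit was first tested on simulated data, with changes larger than the difference of any member and in genes above the lowest levels. That test does not show how small differences or genes near 1 FPKM fare. Genes were named by level (the 12 highest), by lack of overlap between groups, by the smallest p (up to 3 per class and 6 partners) and by closeness to the threshold (3 on each side, 4 outside because of a tie). Genes beyond this rule are marked where they appear. Plots used Python 3.11.15 and matplotlib 3.10.9. The values of 1 member are not reported here, though it is counted among the 108.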

Additional observations from a re-analysis of the deposited data

How the results depend on the processing

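The count of solute carriers past the adjusted threshold was 0 under all settings run: pseudocounts of 0.1 and 5, no filter or a mean FPKM of at least 5, FPKM rescaled to equal sums, median-ratio scaling, quantile normalization, the replicate block, and each library left out. The 4 members at an unadjusted p under 0.05 became 1 with a mean of at least 5 FPKM, where 62 members were tested, and ranged from 3 to 8 without single libraries, with 8 both without knockdown 3 and without control 2. SLC27A6 was among them under every setting that tested it. Members with a limma unadjusted p under 0.05 only without 1 library included SLC18A2 (control 2), SLC35A4 (knockdown 3) and SLC17A3 (control 1). Where a single value without 1 library is given for a gene, it is mostly the one nearest 0, and others lay further from 0. The median log2 difference of the members stayed between 0.02 under quantile normalization and 0.11 without control 2. Over all tested genes, 0 past the threshold became 2 with equal sums and 2 with a mean of at least 5 FPKM, and ranged from 0 to 2 without single libraries. For 30 genes with a log2 difference given, all 411 recomputed values kept their direction and stayed short of the threshold. Part of the kept direction was fixed beforehand. Leaving out a library cannot reverse a gene whose groups do not overlap, and the filters and the block do not alter the difference itself. The difference ranged from 0.38 to 0.90 for SLC27A6 and from 0.27 to 1.11 for SLC50A1. MTFP1 had a higher mean in knockdown libraries under each setting tried for it, which left out the filters, quantile normalization and the block. Same-numbered libraries did not deviate together (correlations 0.03, -0.16 and 0.07), and with the replicate number as a block 2 members, SLC27A6 among them, had an unadjusted p under 0.05. Of the 6 libraries, 2 correlated best with their own number. The labels do not say whether same-numbered libraries were paired, and 3 pairs are too few to settle it. With 3 libraries a group and unknown depth, small differences of genes near 1 FPKM are not resolved.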
